A study of Mus musculus with 10 samples.

Results

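The genes described here encode the proteins of the cytosolic ribosome. They were taken as every gene on an Illumina MouseRef-8 bead array whose platform symbol follows the naming of ribosomal proteins of the small subunit (Rps) or large subunit (Rpl, Rplp), without kinases, binding proteins or pseudogenes. The array carried 75 probes for 59 such genes, 22 of the small and 37 of the large subunit, among 16593 named genes. Of the 59, 55 (21 small, 34 large) had a probe with a detection p under 0.01 on 2 or more arrays and were tested, together with all other genes and unnamed probes that passed the same filter, 9679 features in all.

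The ribosome is built from ribosomal RNA and one copy of most ribosomal proteins, assembled in the nucleolus and exported to the cytoplasm as a small subunit, which decodes the messenger RNA, and a large subunit, which joins the amino acids. Messenger RNAs of ribosomal proteins are among the most abundant in most cells and start with a run of pyrimidines, through which growth signalling sets their translation. Neurons depend on local translation in axons and dendrites, and loss of single ribosomal proteins is known to give tissue-specific defects in mice and people.

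RNA came from 3 kinds of mouse motor neurons that carried an Hb9::GFP transgene, in which the promoter of the motor neuron gene Hb9 (Mnx1) drives green fluorescent protein. Induced motor neurons were made from embryonic fibroblasts in which 10 transcription factors, unnamed in the labels, were overexpressed (C57BL/6 background; 1 GFP-high and 1 GFP-medium array). ES-derived motor neurons were differentiated from the embryonic stem cell line V6.5, a single line (2 GFP-high and 2 GFP-medium arrays). Embryonic motor neurons were dissected from spinal cord at E13.5, a stage of embryonic development (C57BL/6 background; 2 GFP-high and 2 GFP-medium arrays). All 10 arrays thus came from sorted GFP-positive cells, and all RNA was amplified in successive rounds before labelling. The labels do not state that replicates come from different animals or cultures, and the p-values therefore reflect a spread that may be technical alone. In such bulk RNA, fewer cells of a type and less RNA per cell cannot be told apart.

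The arrays differed in brightness, and 3 of them stood apart. Mean deposited intensity was 166 and 140 on the induced GFP-high and GFP-medium arrays. It lay between 3.16 and 577 on the ES-derived arrays and between 51.3 and 474 on the embryonic ones. The 3 arrays of mean intensity under 100 were, within the ES-derived origin, GFP-high replicate 1 (3.16) and GFP-medium replicate 1 (81.6), and within the embryonic origin GFP-medium replicate 1 (51.3). The dimmest of them detected 2095 probes, against 6921 to 11441 on the others. ES-derived GFP-medium replicate 1 also had the lowest summed level of the neuronal and motor neuron markers (2155, against 12027 to 19459 on the other ES-derived arrays) and the highest of the pluripotency markers (29245, against 1332 to 3586 on those). Of 20 neuronal and motor neuron markers on the array, 12 were detected in induced, 15 in ES-derived and 16 in embryonic cells. The probe of Mnx1 itself was not detected on any ES-derived or embryonic array. Counts of called genes, medians and the genes named for a call are also given without these 3 arrays. With them left out, the induced arrays are the dimmest of the 7 that stay, so that brightness and induced origin cannot be told apart in that fit.

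Ribosomal protein probes made up a larger part of the signal on the dimmer arrays. They held 7.51% of the positive deposited intensity on the induced GFP-high array and 7.72% on the induced GFP-medium array. On the ES-derived arrays they held 6.44% and 3.47% in the GFP-high and 8.58% and 4.54% in the GFP-medium fraction (replicates 1 and 2). On the embryonic arrays they held 3.69% and 4.32% in the GFP-high and 9.64% and 3.81% in the GFP-medium fraction. The mean was 7.61% ± 0.147 in induced cells (SD, n = 2), 5.76% ± 2.25 in ES-derived cells (n = 4) and 5.37% ± 2.86 in embryonic cells (n = 4), and the induced arrays lay within the range of both other origins. Each SD spans both gates. The induced one rests on 1 array per gate, so it measures no spread between replicates. All 5 arrays with a mean intensity of 166 or less gave 6.44% or more, and all 5 brighter arrays gave 4.54% or less. The dimmest array of all had the lowest share of the 5 dimmer ones. The shares moved with the way the intensities were read: in the authors' normalized intensities the means were 5.16% in induced, 5.01% in ES-derived and 4.33% in embryonic cells. Over detected probes only they were 7.68%, 7.12% and 5.44% in the same order, and the dimmest array then held 11.7%.

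**Figure D1:**
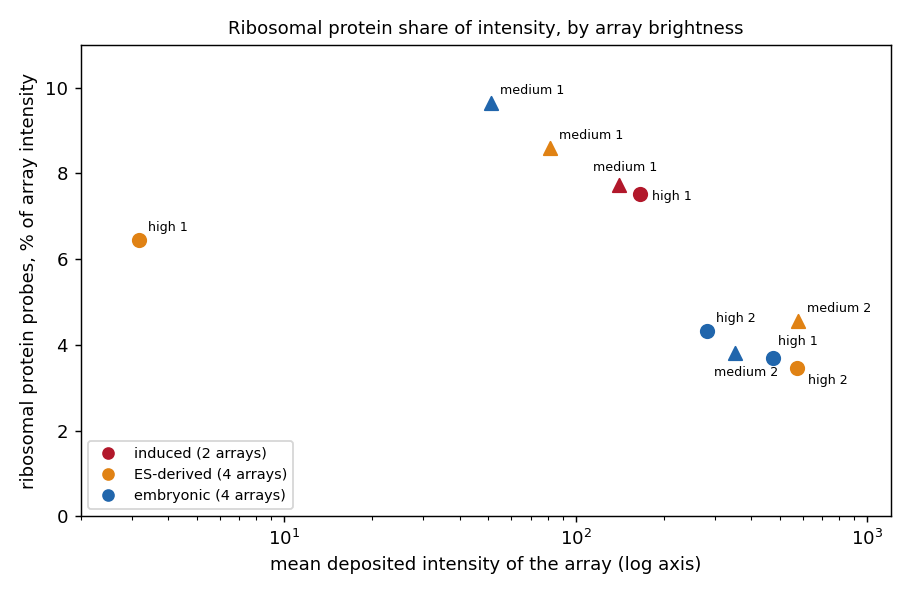
Share of the positive deposited intensity held by the 75 ribosomal protein probes (y axis, percent) against the mean deposited intensity of each of the 10 arrays (x axis, log scale), with circles for GFP-high and triangles for GFP-medium arrays. The share lies between 6.44% and 9.64% on the 5 dimmer arrays and between 3.47% and 4.54% on the 5 brighter ones.

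After normalization the same arrays stood out within their origins. Embryonic GFP-medium replicate 1 lay above all 3 other embryonic arrays for 40 of the 55 tested genes, which was so for 27.3% of all features. ES-derived GFP-high replicate 1 lay above the other 3 ES-derived arrays for 27 of the 55 and below them for 13, beside 23.3% and 53% of all features. The lowest log2 level detected on that array was 8.68, so that values under it there were not detected. On that array Rpl22, Rpl24, Rpl27, Rpl35, Rpl37a, Rps2, Rps6, Rps7, Rps12, Rps13 and Rps16 were more than 2 log2 units above the mean of the other ES-derived arrays. Rpl4, Rpl13a, Rpl21, Rpl27a, Rpl30 and Rplp0 were more than 2 units below it. Rplp0 encodes the core of the ribosomal stalk, which recruits translation factors, and is often used as a reference gene. It had log2 levels of 9.55 and 9.57 in induced cells, 4.32 (not detected) and 9.63 in ES-derived GFP-high cells, 9.81 and 9.66 in ES-derived GFP-medium cells, and 8.89 to 9.25 in the 4 embryonic samples. A single array therefore set the spread of Rplp0 in the ES-derived group.

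**Figure D2:**
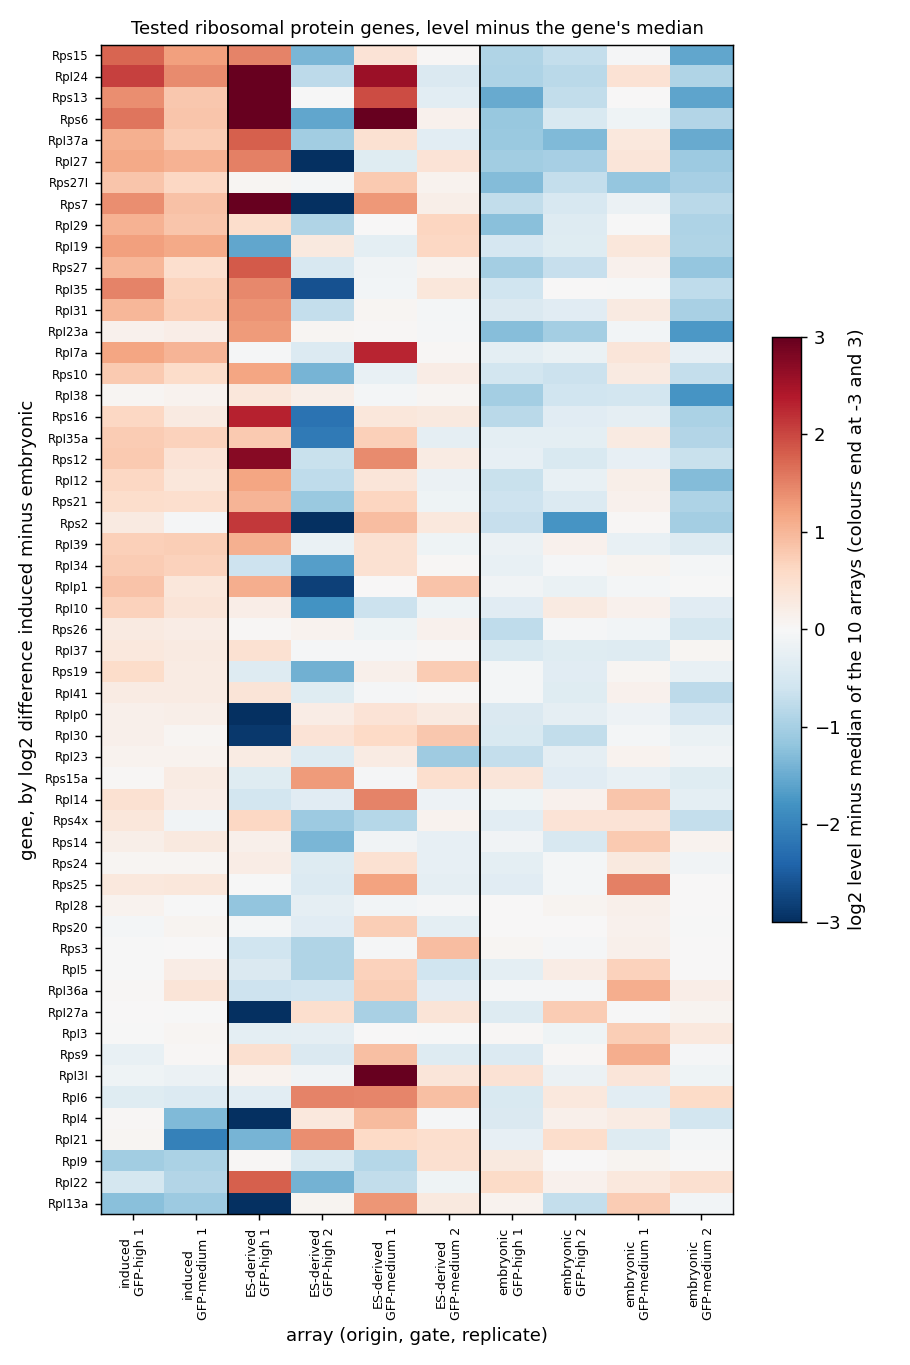
Log2 level of the 55 tested ribosomal protein genes on the 10 arrays, each minus the median of the gene over the arrays, with genes in order of the difference between induced and embryonic cells. The dimmest array, ES-derived GFP-high replicate 1, holds both the highest and the lowest values of its origin, with 11 genes over 2 log2 units above and 6 over 2 units below the other ES-derived arrays.

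Levels varied least for the probes of highest signal. The 9 genes with a mean log2 level over 13 (Rpl23, Rpl28, Rpl37, Rpl38, Rpl41, Rps14, Rps20, Rps24 and Rps26) had a median SD over the 10 arrays of 0.36. The 39 genes with a mean between 8 and 13 had a median SD of 0.86, and the 7 below 8 (Rpl3l, Rpl6, Rpl7a, Rpl14, Rpl21, Rpl24 and Rps6) of 1.00. The highest log2 level on each array was 14.44, since quantile normalization gives all arrays the same set of values. The part of this upper limit in the SD of the first group was not tested. Ranges over the 10 arrays in that group ran from 0.87 (Rps24) to 2.15 (Rps14). Rps20, a protein of the small subunit head, had 13.51 and 13.66 in induced cells, 13.24 to 14.31 in ES-derived cells and 13.55 to 13.71 in embryonic cells.

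The comparison of induced with embryonic cells asked how neurons made by reprogramming differ from those of the embryo. With all arrays none of the 55 genes was called at an adjusted p under 0.05, where 1.27% of all features were. At an unadjusted p under 0.05 there were 7, of which 6 were higher, beside 12.6% of all features. The median log2 difference of the 55 was 0.60, against -0.02 over all features, and 40 of the 55 lay above 0 (18 of 21 small subunit genes with a median of 0.97, 22 of 34 large subunit genes with a median of 0.54). Both induced arrays lay above all 4 embryonic arrays for 32 genes, which was so for 20.3% of all features. Both lay below all of them for 3 genes (Rpl9, Rpl13a and Rpl22), beside 20% of all features.

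Without the 3 dimmest arrays 13 of the 55 were called higher in induced cells and none lower, where 7.75% of all features were called higher and 9.63% lower. At an unadjusted p under 0.05 there were 21, of which 18 were higher, beside 32.6% of all features. The median difference was then 0.62, against -0.06 over all features. The 13 were Rpl7a, Rpl19, Rpl23a, Rpl24, Rpl29, Rpl31, Rpl37a, Rpl38, Rps6, Rps13, Rps15, Rps27 and Rps27l. Without the dimmest array alone, 2 were called, Rps27l (adjusted p = 0.0216) and Rps15 (adjusted p = 0.0374), where 6.67% of all features were called in either direction. With all 10 arrays kept but weighted by their spread, all 13 were called among 27 of the 55 (24 higher; Rpl9, Rpl13a and Rpl22 lower), where 30% of all features were called. These calls came where dim arrays were left out or counted less. The weights were also 2.74 on each induced array, 0.63 on ES-derived GFP-high replicate 2, a bright array, and 1.20 to 2.98 on the other bright arrays. With all 10 arrays at equal weight but no filter on dim probes, Rps27l was called as well (adjusted p = 0.0356), where 0.89% of all features were. Leaving out embryonic GFP-medium replicate 1 alone, or ES-derived GFP-medium replicate 1 alone, gave 0 calls. The arrays left in are 2 induced ones with mean intensities of 140 and 166 and brighter embryonic ones of 282 to 474, and the part of brightness in the result was not tested. Embryonic GFP-medium replicate 1, which is dimmer than the induced arrays, was left out of that fit. It had the highest level of the 4 embryonic arrays for 12 of the 13 (not Rps27l), beside 27.3% of all features. Its level lay below both induced arrays for all 13. The 13 were picked as higher in induced cells, so this last count is partly set by that choice. The same count was not made over all features, so it has no share to stand beside.

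**Figure D3:**
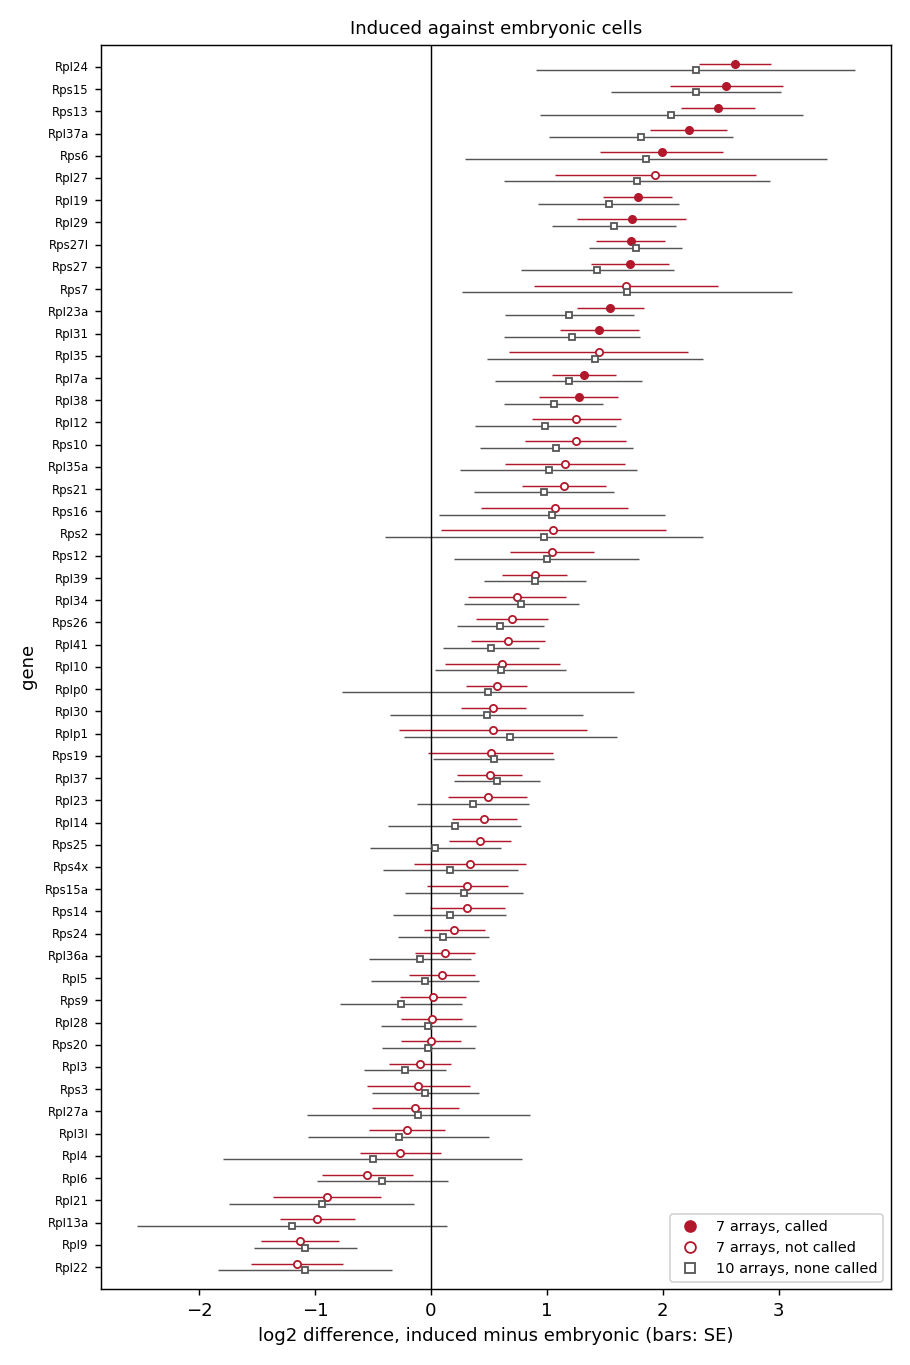
Log2 difference between induced and embryonic cells for the 55 tested genes (x axis; bars are SE), from the fit on 7 arrays without the 3 dimmest (circles, filled where the adjusted p is under 0.05) and the fit on all 10 arrays (squares, none called). The 13 filled circles lie between 1.27 and 2.63, and the bars are shorter in the fit on 7 arrays.

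Rps27l encodes a close relative of Rps27 that is known as a target of p53 and as a regulator of Mdm2. It had log2 levels of 11.95 and 11.75 in induced cells, 11.19 and 11.05 in ES-derived GFP-high cells, 11.90 and 11.23 in ES-derived GFP-medium cells, 9.82 and 10.41 in embryonic GFP-high cells, and 9.95 and 10.13 in embryonic GFP-medium cells. The induced and the ES-derived arrays all lay above the 4 embryonic ones, and the highest ES-derived value was that of a dim array. It had the smallest p of the 55 in this comparison with all arrays, with a difference of 1.77 ± 0.40 (SE; adjusted p = 0.0746), and 1.72 ± 0.30 (adjusted p = 0.00962) without the 3 dimmest. Its partner Rps27, a zinc-binding protein of the small subunit, had 11.72 and 11.22 in induced cells, 12.56 and 10.23 in ES-derived GFP-high cells, 10.61 and 10.83 in ES-derived GFP-medium cells, and 9.70, 10.03, 10.84 and 9.57 in embryonic cells (GFP-high replicates 1 and 2, then GFP-medium). The highest embryonic value of Rps27 was that of the dim array. The difference of Rps27 was 1.44 ± 0.66 (adjusted p = 0.425) with all arrays and 1.72 ± 0.33 (adjusted p = 0.0137) without the 3 dimmest.

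Rpl24 lies at the bridge between the subunits, and its mutation causes the mouse Belly spot and tail phenotype. It had log2 levels of 8.10 and 7.46 in induced cells, 10.86 and 5.26 in ES-derived GFP-high cells, 8.62 and 5.62 in ES-derived GFP-medium cells, and 5.12, 5.24, 6.48 and 5.15 in embryonic cells. The values of 10.86, 8.62 and 6.48 were those of the 3 dim arrays, and the 5 bright ES-derived and embryonic arrays lay between 5.12 and 5.62. The 5.26 of ES-derived GFP-high replicate 2 was not detected. It had the largest difference in the fit without those arrays, 2.63 ± 0.31 (adjusted p = 0.00261), and 2.28 ± 1.37 (adjusted p = 0.603) with them.

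Rps13, which sits on the platform of the small subunit, also had its highest ES-derived and embryonic levels on the dim arrays. Unlike for Rpl24, its bright ES-derived arrays (7.75 and 7.44) lay above the bright embryonic ones (6.24, 7.01 and 6.17). Its log2 levels were 9.16 and 8.58 in induced cells, 12.07 and 7.75 in ES-derived GFP-high cells, 9.71 and 7.44 in ES-derived GFP-medium cells, and 6.24, 7.01, 7.77 and 6.17 in embryonic cells. The difference was 2.47 ± 0.32 (adjusted p = 0.00332) without the 3 dimmest arrays and 2.07 ± 1.14 (adjusted p = 0.541) with them. Rps15, needed for export of the small subunit from the nucleus, had 10.24 and 9.73 in induced cells, 9.98 and 7.14 in ES-derived GFP-high cells, 8.91 and 8.53 in ES-derived GFP-medium cells, and 7.60, 7.78, 8.47 and 6.94 in embryonic cells. Both induced arrays lay above every embryonic array, and the dim embryonic array was the closest to them. The difference of Rps15 was 2.29 ± 0.74 (adjusted p = 0.204) with all arrays and 2.55 ± 0.49 (adjusted p = 0.0129) without the 3 dimmest.

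Rps6, the protein that S6 kinases phosphorylate in response to growth signals, had log2 levels of 7.83 and 7.06 in induced cells, 11.53 and 4.66 in ES-derived GFP-high cells, 9.48 and 6.36 in ES-derived GFP-medium cells, and 5.10, 5.78, 6.10 and 5.35 in embryonic cells. Within the ES-derived origin both dim arrays lay far above the bright ones, of which GFP-high replicate 2 did not detect the gene. The difference between induced and embryonic cells was 1.86 ± 1.56 (adjusted p = 0.756) with all arrays and 1.99 ± 0.53 (adjusted p = 0.0401) without the 3 dimmest. Rpl38, which in mice is needed for translation of Hox messenger RNAs, had 13.48 and 13.51 in induced cells, 13.75 and 13.59 in ES-derived GFP-high cells, 13.35 and 13.48 in ES-derived GFP-medium cells, and 12.39, 12.82, 12.87 and 11.65 in embryonic cells. All induced and ES-derived arrays lay above the embryonic ones. The difference of Rpl38 was 1.06 ± 0.43 (adjusted p = 0.327) with all arrays and 1.27 ± 0.34 (adjusted p = 0.0402) without the 3 dimmest.

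Rpl19 and Rpl29, both of the large subunit, were also among the genes of smallest p with all arrays. Rpl19 had 10.41 and 10.31 in induced cells, 7.62 (not detected), 9.46, 8.89 and 9.80 in ES-derived cells (GFP-high replicates 1 and 2, then GFP-medium) and 8.68, 8.82, 9.52 and 8.28 in embryonic cells, and was higher by 1.78 ± 0.30 without the 3 dimmest (adjusted p = 0.00854) and by 1.53 ± 0.61 with all arrays (adjusted p = 0.319). For Rpl29 the difference was 1.73 ± 0.47 without the 3 dimmest (adjusted p = 0.0433) and 1.58 ± 0.53 with all arrays (adjusted p = 0.227). The other called genes of that fit were Rpl37a (2.22 ± 0.33), Rpl23a (1.55 ± 0.29), Rpl31 (1.45 ± 0.34) and Rpl7a (1.32 ± 0.28), with adjusted p between 0.00567 and 0.0272. Of these, Rpl31 had a second kept probe of opposite sign (-0.86 with all arrays, against 1.22 for the probe used). The embryonic arrays did not detect Rpl7a at all, so its level in them is a bound, and induced cells were at least 1.72-fold higher. Rpl7a was detected on the 2 induced arrays and 1 ES-derived array. It thus passed the detection filter through the induced cells, and its call is partly set by that filter.

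Not every gene leaned the same way. Rpl22, a protein not needed for viability in mice that binds RNA outside the ribosome, had log2 levels of 8.36 and 8 in induced cells, 10.69, 7.47, 8.14 and 8.75 in ES-derived cells, and 9.46, 9.03, 9.21 and 9.36 in embryonic cells. The 2 induced arrays lay below the 4 embryonic ones, with a difference of -1.09 ± 0.75 with all arrays (adjusted p = 0.669) and -1.16 ± 0.40 without the 3 dimmest (adjusted p = 0.0862). Its paralog Rpl22l1, whose symbol falls outside the rule, had 7.05 and 6.95 in induced cells, 5.24, 5.82, 7.33 and 5 in ES-derived cells, and 4.89, 5.60, 4.44 and 5 in embryonic cells. Rpl22l1 differed by 2.02 ± 0.65 with all arrays (adjusted p = 0.204), and in the fit on 7 arrays it was called higher by 1.90 ± 0.33 (adjusted p = 0.00979). In mice Rpl22 is known to repress Rpl22l1. Rpl13a, which in human cells leaves the ribosome on interferon signalling to silence inflammatory messages, had 8.42 and 8.58 in induced cells, 4.34 (not detected), 9.76, 11 and 9.98 in ES-derived cells, and 9.78, 8.97, 10.45 and 9.60 in embryonic cells. Its difference was -1.20 ± 1.34 with all arrays (adjusted p = 0.851) and -0.98 ± 0.32 without the 3 dimmest (adjusted p = 0.0762). The remaining gene with both induced arrays below all embryonic ones, Rpl9, differed by -1.08 ± 0.44 with all arrays (adjusted p = 0.34).

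**Figure D4:**
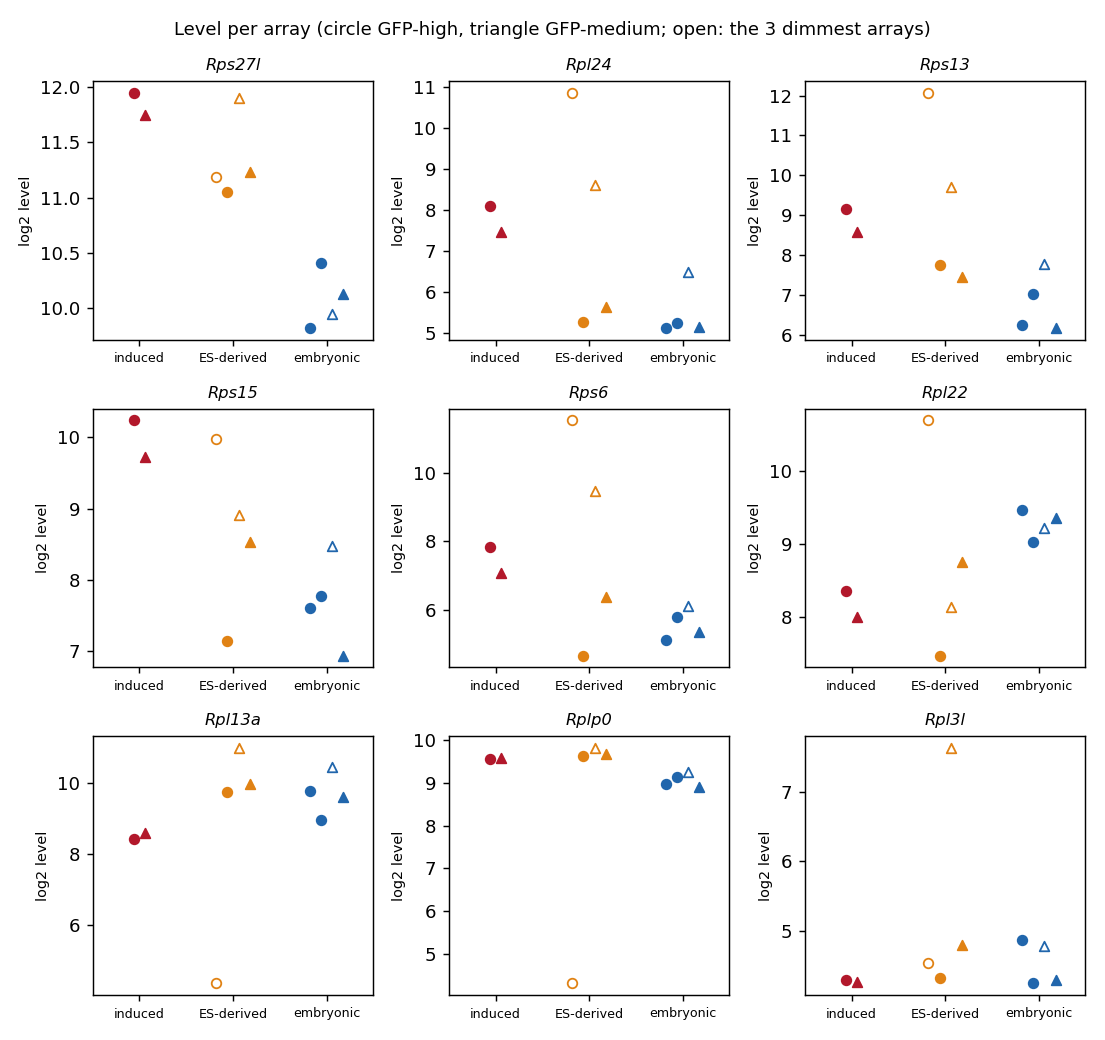
Log2 level of 9 ribosomal protein genes per array (y axis, a scale of its own in each panel) in induced, ES-derived and embryonic cells, with circles for GFP-high, triangles for GFP-medium and open symbols for the 3 dimmest arrays. All induced and ES-derived values of Rps27l lie above the embryonic ones, while for Rpl24, Rps13 and Rps6 the open ES-derived symbols lie far above the filled ones.

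The start sites of the called genes are shown because transcripts of ribosomal proteins are known for short shared elements there. Of the 13 genes called without the 3 dimmest arrays, 11 have a window in the RefSeq promoter table (build GRCm38.p6), and 50 of the 59 genes on the array do. Each line gives 40 bases before and 20 bases from the annotated start, 5′ to 3′ on the strand of the gene, with the letters CGGAAG (the core bound by ETS factors) and CTTTCC (a pyrimidine element) in capitals, found on either strand.
Rpl24 (chr16:55966235-55966294, plus strand): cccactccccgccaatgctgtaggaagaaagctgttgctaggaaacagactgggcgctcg
Rps15 (chr10:80292391-80292450, plus strand): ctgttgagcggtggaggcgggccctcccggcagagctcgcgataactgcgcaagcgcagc
Rps13 (chr7:116334171-116334230, minus strand): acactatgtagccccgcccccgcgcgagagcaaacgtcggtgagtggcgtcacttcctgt
Rpl37a (chr1:72711220-72711279, plus strand): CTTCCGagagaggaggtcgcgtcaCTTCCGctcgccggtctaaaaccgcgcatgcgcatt
Rps6 (chr4:86857348-86857407, minus strand): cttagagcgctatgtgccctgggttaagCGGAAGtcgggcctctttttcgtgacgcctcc
Rpl19 (chr11:98026670-98026729, plus strand): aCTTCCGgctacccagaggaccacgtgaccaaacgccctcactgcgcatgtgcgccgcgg
Rps27l (chr9:66946046-66946105, plus strand): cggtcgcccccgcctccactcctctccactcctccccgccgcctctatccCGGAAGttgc
Rps27 (chr3:90213629-90213688, minus strand): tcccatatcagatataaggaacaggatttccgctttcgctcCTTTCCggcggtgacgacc
Rpl31 (chr1:39367811-39367870, plus strand): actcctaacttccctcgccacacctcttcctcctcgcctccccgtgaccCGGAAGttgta
Rpl7a (chr2:26910767-26910826, plus strand): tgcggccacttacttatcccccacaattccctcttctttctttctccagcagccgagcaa
Rpl38 (chr11:114668540-114668599, plus strand): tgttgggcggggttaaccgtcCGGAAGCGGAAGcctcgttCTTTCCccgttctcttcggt
The element CGGAAG stood in 6 of these 11 windows and CTTTCC in 2, both in that of Rpl38, where they do not overlap. A run of 8 or more C or T within 10 bases before to 20 bases after the start was in 4 of the 11. Over all 61 windows of the 50 ribosomal protein genes, CGGAAG was in 23%, CTTTCC in 19.7% and the run in 32.8%, against 6.62%, 5.38% and 11.2% of the 32851 windows of all genes in the table. AAGATGGC, the core bound by YY1, was in 4.92% of the windows of ribosomal protein genes and 0.551% of all, and in none of the 11. These matches describe letters only, and annotated starts can lie some bases from the true ones. Genes sat on 17 chromosomes, with Rpl10, Rpl36a, Rpl39 and Rps4x on the X chromosome.

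The comparison of ES-derived with embryonic cells asked the same of neurons made by directed differentiation. With all arrays none of the 55 was called, where 0.899% of all features were. There were 4 at an unadjusted p under 0.05, all higher, beside 11.1% of all features. The median log2 difference was 0.16, against -0.13 over all features, and 34 of 55 lay above 0 (14 of 21 small subunit genes with a median of 0.48, 20 of 34 large subunit genes with a median of 0.11). All 4 ES-derived arrays lay above all 4 embryonic ones for Rpl23a, Rpl38 and Rps27l, 3 genes of 55 beside 2.24% of all features. They lay below them for Rpl28 alone, beside 5.06% of all features. With median scaling in place of quantile normalization the median was 0.40, against 0.48 over all features, so that these genes lay above all features with the one scaling and below them with the other. Without the 3 dimmest arrays the median was 0.01, against 0.02 over all features, and 1 gene, Rpl23a, was called higher, where 1.6% of all features were. At an unadjusted p under 0.05 there were then 11, of which 9 were higher, beside 20.8% of all features.

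Rpl23a, which lies at the exit of the peptide tunnel and contacts the signal recognition particle, had log2 levels of 11.87 and 10.66 in ES-derived GFP-high cells, 10.63 and 10.56 in ES-derived GFP-medium cells, and 9.31, 9.57, 10.52 and 8.88 in embryonic cells. The dim embryonic array lay just below the lowest ES-derived one. The difference was 1.36 ± 0.46 with all arrays (adjusted p = 0.279) and 1.39 ± 0.29 without the 3 dimmest (adjusted p = 0.0442). Rps27l had the smallest p of the 55, with 1.26 ± 0.33 (adjusted p = 0.141). Rpl38 differed by 1.11 ± 0.35 (adjusted p = 0.236). Rps13 differed by 2.44 ± 0.93 (adjusted p = 0.351) with all arrays and by 1.20 ± 0.32 (adjusted p = 0.0864) without the 3 dimmest.

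Between induced and ES-derived cells none of the 55 was called with all arrays, where 0.806% of all features were. There were 3 at an unadjusted p under 0.05 (Rpl19 and Rpl34 higher, Rpl6 lower in induced cells), beside 11.9% of all features. The median was 0.35, against 0.08 over all features, and 41 of 55 lay above 0 (15 of 21 small subunit genes, 26 of 34 large subunit genes). In the authors' normalized intensities the median was 0.38, against 0.46 over all features, so that the genes lay below all features there. With ES-derived GFP-high replicate 2 alone left out it was 0.16, against 0.17 over all features. That bright array is 1 of the 2 ES-derived arrays in the fit without the 3 dimmest. Both induced arrays lay above all 4 ES-derived arrays for 7 genes (Rpl10, Rpl19, Rpl28, Rpl29, Rpl34, Rps14 and Rps26), beside 13.9% of all features, and below them for Rpl3l, Rpl6 and Rpl9, beside 7.37%. Without the dimmest array 1 gene, Rpl21, was called lower (-1.97 ± 0.46, adjusted p = 0.0455), where 4.12% of all features were called in either direction. Of the 2 induced arrays, GFP-high detected Rpl21 (6.44) and GFP-medium did not (4.34). Without the 3 dimmest 5 were called, where 11.4% of all features were, with Rpl7a, Rpl24, Rpl37a and Rps15 higher and Rpl13a lower. Of the arrays in that fit only the induced ones detected Rpl7a, and its undetected ES-derived values were 4.28 and 4.73. Its call is thus partly set by the detection filter, which it passed through the induced arrays. The median was then 0.73, against -0.08 over all features, and 24 genes had an unadjusted p under 0.05, of which 20 were higher, beside 30% of all features.

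Rpl24 was higher in that fit by 2.34 ± 0.34 (adjusted p = 0.00782), while with all arrays the difference was 0.19 ± 1.37 (adjusted p = 0.975). Only 2 bright ES-derived arrays, at 5.26 (not detected) and 5.62, stand behind the first value. Rpl13a was lower, with a difference of -1.37 ± 0.35 (adjusted p = 0.0452), without the 3 dimmest and differed by -0.27 ± 1.34 (adjusted p = 0.96) with all arrays. Rpl34, of the large subunit, had 12.39 and 12.33 in induced cells against 11.01, 9.98, 12.09 and 11.68 in ES-derived cells, a difference of 1.17 ± 0.49 (adjusted p = 0.399). Rpl10, the large subunit protein that is placed last and completes the peptidyl transferase site, had 13.05 and 12.74 in induced cells against 12.55, 10.56, 11.72 and 12.24 in ES-derived cells, a difference of 1.12 ± 0.57 (adjusted p = 0.496). Rpl6 was not detected on either induced array (4.35 and 4.30) and had 4.40 (not detected), 6.21, 6.17 and 5.62 in ES-derived cells. As a bound on the means, Rpl6 was at least 1.32-fold lower in induced than in ES-derived cells. Its difference was not called with all arrays (-1.28 ± 0.57, adjusted p = 0.421) or without the 3 dimmest (-1.59 ± 0.42, adjusted p = 0.0518).

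GFP-high and GFP-medium cells were compared over all origins. None of the 55 was called and none reached an unadjusted p under 0.05, where 0% and 2.08% of all features did. The median was -0.18, against -0.06 over all features, and 18 of 55 lay above 0. No gene had all GFP-high arrays on one side of all GFP-medium arrays, beside 0.248% of all features. The genes of smallest p were Rpl36a (-0.67 ± 0.32), Rpl13a (-1.67 ± 0.98), Rpl34 (-0.60 ± 0.36) and Rps25 (-0.66 ± 0.41), each with an adjusted p of 0.962. Without the 3 dimmest arrays Rpl13a differed by -0.20 ± 0.27, the median was -0.08, against 0.02 over all features, and 1 gene, Rpl21, had an unadjusted p under 0.05, beside 3.92% of all features.

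A change of the gate difference between origins was tested over the 6 groups, where each induced group is 1 array. None of the 55 was called in any of the 3 contrasts, where 0% of all features were in each. None reached an unadjusted p under 0.05, beside 1.61% of all features in the contrast of ES-derived and embryonic cells, 0.217% in that of induced and embryonic cells and 1.18% in that of induced and ES-derived cells. The genes of smallest p were Rpl34 (-1.25 ± 0.80) and Rps19 (-1.25 ± 0.83) in the first contrast, Rpl21 (1.74 ± 1.54) and Rps25 (0.92 ± 1.27) in the second, and Rpl21 (2.66 ± 1.54) and Rps19 (1.68 ± 1.01) in the third. Rps19, the protein most often mutated in human Diamond-Blackfan anaemia, had 13.02 and 12.71 in induced GFP-high and GFP-medium cells, 12.09 and 11.03 in ES-derived GFP-high cells, 12.63 and 13.24 in ES-derived GFP-medium cells, 12.41 and 12.12 in embryonic GFP-high cells, and 12.53 and 12.25 in embryonic GFP-medium cells. Both ES-derived GFP-high arrays were below both ES-derived GFP-medium arrays for it.

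Paralogs known for restricted tissues stood out on a single array. Rpl3l, the form of Rpl3 that replaces it in heart and skeletal muscle, had 7.63 on ES-derived GFP-medium replicate 1 and 4.25 to 4.87 on the other 9 arrays, and was detected on 2. Rpl39l, the form of Rpl39 known from male germ cells, had 9.21 on the same array and 4.28 to 4.66 on the other 9. It was detected on that array alone and so was not tested. That array is the one with the highest summed level of pluripotency markers and the lowest of neuronal markers given above, whose part in these values was not tested. The widely expressed partners varied less: Rpl3 had 12.79 and 12.86 in induced cells, 12.51 to 12.83 in ES-derived cells and 12.67 to 13.55 in embryonic cells, and Rpl39 had 12.75 and 12.78, 11.84 to 13.09 and 11.64 to 12.15 in the same order. Neither passed the test between origins with all arrays (adjusted p of 0.466 or more for Rpl39 and 0.686 or more for Rpl3). Both induced arrays lay above all embryonic ones for Rpl39. Without the 3 dimmest arrays it was higher in induced than in embryonic cells by 0.90 ± 0.28 (adjusted p = 0.0672). With array weights Rpl39 was called in that comparison, where 30% of all features were.

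Other proteins with known roles gave no call in any of the 4 comparisons with all arrays. Rpl5, which with 5S RNA binds Mdm2 when ribosome assembly fails, differed by -0.05 ± 0.47 between induced and embryonic cells (adjusted p = 0.994) and by -0.47 ± 0.38 between ES-derived and embryonic cells (adjusted p = 0.707). Rps4x, the X-linked form of a small subunit protein, differed by 0.17 ± 0.58 between induced and embryonic cells (adjusted p = 0.978). Rplp1, which with Rplp2 forms the flexible part of the stalk, differed by 0.69 ± 0.92 between induced and embryonic cells (adjusted p = 0.888). Its level was 13.20 and 12.67 in induced cells, 13.44, 9.53, 12.36 and 13.20 in ES-derived cells and 12.14 to 12.32 in embryonic cells. The wide ES-derived range of Rplp1 came from GFP-high replicate 2, a bright array.

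The probes of Rpl17, Rplp2 and Rps23 were not detected on any array. Rpsa and Rps3a1 are ribosomal proteins whose symbols the naming rule does not take, and neither was called. Rpsa was detected on 5 arrays and Rps3a1 on 9. Over all arrays, detected or not, Rpsa had 4.33 to 5.40 and Rps3a1 7.61 to 9.23. Rpl10a, Rpl10l, Rpl11 and Rps27a follow the naming rule but were not among the 59 symbols it found in the platform annotation, so they were not analysed. Of 12 tested genes with more than 1 kept probe, the probes differed in sign for 6 between induced and embryonic cells (Rpl4, Rpl23, Rpl27a, Rpl31, Rps3 and Rps9), 8 between ES-derived and embryonic cells (Rpl4, Rpl21, Rpl23, Rpl27a, Rpl31, Rpl37, Rplp0 and Rps3), 7 between induced and ES-derived cells (Rpl4, Rpl23, Rpl29, Rpl31, Rpl38, Rps3 and Rps9) and 4 between gates (Rpl23, Rpl27a, Rpl31 and Rpl37). For 46 of the 59 genes RefSeq names pseudogenes, 244 in all. Whether a probe also matches these copies was not tested, so levels of such genes are uncertain.

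Other genes of translation were read from lists of known members. Of 68 mitochondrial ribosomal protein genes tested, which serve a separate ribosome, none was called with all arrays. Their median between induced and embryonic cells was 0.85, with 58 above 0, and without the 3 dimmest arrays 27 were called higher and none lower. For 23 translation initiation factors the median of the same comparison was 0.04, and for 10 elongation and release factors it was -0.16, with none called with all arrays. For 36 ribosome assembly and nucleolar genes the median was 0.07, for 13 genes of RNA polymerase I and its factors 0.52, and for 12 genes of growth signalling to the ribosome -0.22, again with none called. Without the 3 dimmest arrays 4 genes of RNA polymerase I and its factors were called higher and none lower. In that fit 1 initiation factor was called higher and 1 lower, 2 assembly genes higher and 3 lower, and 1 elongation factor and 1 growth signalling gene lower. These counts stand beside the 7.75% of all features called higher and 9.63% called lower in the same fit. Both groups of ribosomal protein genes thus had medians above those of the initiation and elongation factors in this comparison, a description without a test.

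Markers of other cell types also differed between the origins. Of 11 muscle markers tested, 6 fell in induced cells, among them the myosin light chain gene Myl1 (adjusted p = 0.000169) and Actc1, the cardiac actin (adjusted p = 0.000169). Neither was detected on an induced array, which leaves bounds: in induced cells Myl1 was at least 47.9-fold lower than in embryonic cells, and for Actc1 the bound was 21.2-fold. In ES-derived cells 6 of the 11 fell as well. Their summed level was 1506 to 7519 in induced cells, 386 to 1615 in ES-derived cells and 8511 to 12848 in embryonic cells. Of 16 fibroblast and mesenchymal markers, 6 fell in induced cells and 7 in ES-derived cells, with summed levels of 426 to 512 in induced, 568 to 2032 in ES-derived and 4323 to 8836 in embryonic cells. Of 9 blood, endothelial and microglial markers, the globins Hbb-y (at least 21.7-fold lower, adjusted p = 0.00105) and Hba-a1 (at least 8.63-fold lower, adjusted p = 0.0161), undetected in induced cells, fell while Lyz2, a lysozyme of myeloid cells, rose by 2.95 (adjusted p = 0.0182). In ES-derived cells 3 of the 9 fell. Among them were Hbb-y (at least 11.4-fold, adjusted p = 0.000231) and Hba-a1 (at least 4.55-fold, adjusted p = 0.00701), both undetected there. With all arrays 1.27% of all features were called between induced and embryonic cells and 0.899% between ES-derived and embryonic cells. Cell cycle genes summed to 1132 to 1350 in induced, 2450 to 13626 in ES-derived and 3357 to 7335 in embryonic cells, with none of 11 called with all arrays. Without the 3 dimmest, 5 were called lower in induced than in embryonic cells, where 9.63% of all features were. Of 10 pluripotency markers tested, all 10 lay above 0 between ES-derived and embryonic cells, with a median of 2.78. None of them was called with all arrays, and 3 were called higher without the 3 dimmest, where 1.6% of all features were. Their summed level was 503 to 522 in induced, 1332 to 29245 in ES-derived and 443 to 726 in embryonic cells. The part of these cells in the ribosomal protein values was not tested.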

How the data were processed

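RNA of 10 samples was hybridised to Illumina MouseRef-8 arrays. The deposited intensity values, exported from BeadStudio per the submitters' processing notes, hold numbers below 0, so the authors had subtracted background. Per the file headers, each probe also has a deposited detection p-value on each array. A second deposited table holds normalized intensity, by a method the sources used here do not state (an alternative only). Intensities were corrected with normexp (limma 3.58.1 in R 4.3.3; detection p-values, offset 16), brought to log2 and quantile normalized. Probes with a detection p under 0.01 on 2 or more arrays were kept, and the probe of highest mean stood for each gene. Origin and gate were fitted additively (limma lmFit and eBayes, two-sided, 6 residual degrees of freedom), and gate differences between origins on the 6 group means (4 degrees). These degrees hold for all 10 arrays. Fits that leave arrays out, from which most of the named calls come, have fewer. Calls are Benjamini-Hochberg adjusted p under 0.05 over 9679 features. The number of arrays limits the precision. Scripts were tested on simulated data.

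Symbols came from the platform annotation and can be old (23978 of 25697 probes had one). The ribosomal protein genes, the gene lists and the tests were chosen with earlier results of these data known. Genes named are, per comparison, the largest called changes or else the 4 of smallest p (2 for gate differences), plus genes with known roles, probes that disagree and genes undetected in an origin. Genes called without the dim arrays were chosen after their values were seen, as were the genes given only by level. A group that detected a gene on none of its arrays gives a bound: the mean of the brighter group against, per array, the higher of the lowest detected level and the level of the gene itself. A summed level is the sum of linear normalized levels of the markers of a list. Alternatives are given in the closing section.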

Additional observations from a re-analysis of the deposited data

Results flagged for a closer look

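Among the 55 tested ribosomal protein genes and their share of array intensity, 112 sets of 4 arrays (ES-derived or embryonic) were looked at for an array far from the other 3, and 12 had one. Chance alone flags about 1 in 20 such sets.

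In the embryonic set, GFP-medium replicate 1, the dimmest array of that origin, was far above the others for the share of intensity (9.64%, against 3.69% to 4.32%), for Rpl24 (log2 level 6.48, against 5.12 to 5.24), Rpl27 (10.73, against 9.28 to 9.39), Rpl7a (5.04, against 4.40 to 4.48, none of them detected) and Rps10 (10.56, against 9.58 to 9.73). GFP-medium replicate 2 was above the others for Rpl37 (13.20, against 12.68 to 12.76).

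In the ES-derived set, GFP-high replicate 1, the dimmest array of all, was above the others for Rpl23a (11.87, against 10.56 to 10.66) and Rpl37 (13.59, against 13.09 to 13.16). It was below them for Rpl30 (5.75, not detected, against 9.07 to 9.47) and Rplp0 (4.32, not detected, against 9.63 to 9.81). GFP-medium replicate 1 was above the others for Rpl3l (7.63, against 4.32 to 4.80) and Rpl7a (6.98, against 4.28 to 4.73). Of the 12 values, 11 came from the 3 arrays of mean intensity under 100.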

How the results depend on the processing

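Across the alternatives run (background correction, scaling, the authors' normalized intensities, filters on dim probes, the mean of the kept probes, an intensity trend, array weights, arrays left out and a replicate block), the count of ribosomal protein genes called moved from 0 in 11 of 137 values. Array weights, which gave the dimmest array a weight of 0.0772, called 27 between induced and embryonic cells (24 higher, 3 lower; 30% of all features), 8 between induced and ES-derived cells (4 higher, 4 lower; 19.9%) and 3 between ES-derived and embryonic cells (all higher; 8.8%). Leaving out the 3 dimmest arrays called 13, 5 and 1 in that order, and no filter on dim probes called 1 (Rps27l, with 0.89% of all features) between induced and embryonic cells. Both induced arrays had an array weight of 2.74. With each array left out in turn, counts ranged from 0 to 2 between induced and embryonic cells, from 0 to 1 between induced and ES-derived cells and stayed at 0 for ES-derived against embryonic cells and for the gates. For the gate difference they ranged from 0 to 4 in ES-derived against embryonic cells and from 0 to 5 in induced against ES-derived cells. The values of 4 (all lower, with 14.5% of all features called) and 5 (all higher, with 4.37%) came without ES-derived GFP-high replicate 2, where the dimmest array alone stands for its group and is assumed to vary like the others; the values of 2 and 1 came without that dimmest array. Over all alternatives the medians over the genes ranged from 0.37 to 1.08 for induced against embryonic cells, 0.16 to 0.73 for induced against ES-derived cells, 0.01 to 0.44 for ES-derived against embryonic cells and -0.53 to 0.03 for the gates. With 1 array left out they ranged from 0.37 to 0.89 for induced against embryonic cells, 0.16 to 0.58 for induced against ES-derived cells, 0.05 to 0.44 for ES-derived against embryonic cells and -0.34 to 0.03 for GFP-high against GFP-medium cells. The 0.16 came without ES-derived GFP-high replicate 2, where the median over all features was 0.17. Of 1763 values for single named genes, 48 gained a call and 79 uncalled values changed sign; none was called with all arrays, so none could lose a call. Median scaling moved the median over all features by over 0.1 for ES-derived against embryonic cells (0.48, with 0.40 over the ribosomal protein genes) and for induced against ES-derived cells (-0.60, with 0.67), and gave -0.02 over all features and 1.08 over the ribosomal protein genes for induced against embryonic cells, and 0.00 and -0.53 for the gates. Without normexp, and in the authors' normalized intensities, the median over all features for ES-derived against embryonic cells was -0.47 and -0.54, with 0.13 and 0.17 over the ribosomal protein genes, and for induced against ES-derived cells it was 0.39 and 0.46, with 0.43 and 0.38. The mean share of intensity over the tested probes only was 7.21% in induced, 5.35% in ES-derived and 4.95% in embryonic cells, and in the authors' normalized intensities it was 5.16% in induced cells, against 7.61%. The replicate numbers were not shown to pair the samples (correlations of deviations -0.09 and 0.10 between gates of the embryonic and ES-derived cells), and a replicate block, fixed or random, left the count of called ribosomal protein genes at 0. A slide could not be used as a block, since the sources used here give none. The cause of these changes was not tested.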
